A study of Drosophila melanogaster with 8 samples.

Results

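The X chromosome arm of Drosophila melanogaster between its ends was examined for regions enriched in heterochromatin protein 1a (HP1a). Members were all enriched regions on X whose midpoint lay above 1000000 and below 20422828 (FlyBase release 5), which leaves out the 1 Mb next to the telomere and the 2 Mb next to the centromere and keeps 19.4 Mb. The rule uses position only. In the 4 ChIP replicates 535 of 5406, 577 of 5127, 588 of 4903 and 476 of 4260 enriched regions met it. The remaining list covers the whole replicate set and is called the combined set, and 816 of its 5697 regions, 14.3%, met the rule.

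All chromatin came from whole embryos of the Oregon-R wild-type strain aged 14 to 16 h, with no treatment, transgene or mutation. HP1a was precipitated with the wa191 antibody in 4 ChIP samples, and per the labels each ChIP list had 1 input sample as its control. The labels do not say whether replicates were separate embryo collections, so the spread between them may be technical, and they give no sex for the embryos. Replicates 1 and 2 carry the submitters' experiment numbers 1914 and 1916, and replicates 3 and 4 carry 2026 and 2027. On this stretch of X the lists shared more within these pairs than across them. The Jaccard index, the bases shared by both lists over the bases covered by either, was 0.675 and 0.621 within the pairs and between 0.489 and 0.557 across them. Values are therefore given for each replicate.

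HP1a is a chromodomain protein that binds histone H3 methylated at lysine 9 and helps to pack the repeat-rich chromatin around centromeres. It is also found at scattered places on the gene-rich arms, where it has been linked both to silencing and to active genes. The X chromosome of flies is set apart from the autosomes by dosage compensation, in which a protein and RNA complex raises transcription from the X of males. The X also carries short arrays of 1.688 satellite family repeats within its euchromatin. These points are background and were not measured here. The study's files give places of enrichment without reads, sequence or genes, so the genes and sequences at these regions were not analysed here, and the depth behind each list is unknown.

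HP1a-enriched regions covered 6.55% of X between its ends in replicate 1, 7.53% in replicate 2, 7.10% in replicate 3 and 5.64% in replicate 4, a mean of 6.71% ± 0.816 (SD, n = 4). The other 4 arms as a whole, trimmed in the same way, were covered over 5.63%, 6.31%, 4.58% and 3.66%, a mean of 5.04% ± 1.16. X was the higher of the pair in every replicate. Set against the other arms, the X share was 1.16, 1.19, 1.55 and 1.54 times as large in replicates 1 to 4. The mean ratio was 1.36 ± 0.212 (SD, n = 4), with 4 of 4 replicates above 1 (exact two-sided permutation p = 0.13 by sign flips, adjusted p = 0.18 by Benjamini-Hochberg over 7 tests). A p of 0.13 is the smallest that 4 replicates can give, so this test cannot pass 0.05.

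**Figure D1:**
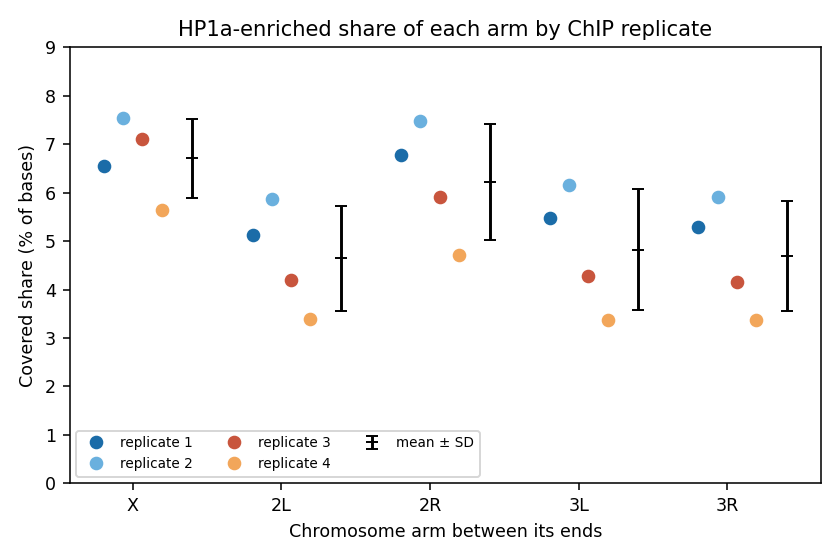
Covered share in percent of bases (vertical axis, from 0) for X, 2L, 2R, 3L and 3R between their ends; each point is 1 ChIP replicate and the black bar is the mean ± SD of the 4. On X replicate 3 (7.10%) lies above replicate 1 (6.55%), whereas on the 4 autosomal arms replicates 3 and 4 both lie below replicates 1 and 2.

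The difference from single arms was of unequal size. Against 2L the ratio of covered shares was 1.48 ± 0.231, against 3R it was 1.47 ± 0.252 and against 3L it was 1.44 ± 0.266 (SD, n = 4), and in each case all 4 replicates were above 1 (exact permutation p = 0.13, adjusted p = 0.18). Against 2R, the arm most like X, the ratios were 0.966, 1.01, 1.20 and 1.20 in replicates 1 to 4. Here 3 of 4 replicates were above 1 (mean 1.09 ± 0.124, exact permutation p = 0.38, adjusted p = 0.44). On the log2 scale the mean was 0.12, and it was 0.24 with more left out at the arm ends and 0.21 as regions per Mb, both with 4 of 4 replicates above 0. It was 0.07 without replicate 3 and 0.07 without replicate 4. Within X the 2 Mb next to the centromere had a covered share of 12.2% ± 1.64 and the 1 Mb next to the telomere a share of 6.35% ± 1.49 (SD, n = 4). The telomere-side 9.71 Mb of the stretch was covered over 7.24%, 8.14%, 7.47% and 6.16% in replicates 1 to 4, and the centromere-side 9.71 Mb over 5.86%, 6.93%, 6.73% and 5.12%. The means were 7.25% ± 0.821 and 6.16% ± 0.834 (SD, n = 4), and the telomere-side part was the higher in every replicate. These differences within X were not tested.

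The excess on X lay in the number of regions and not in their width. X held 27.5, 29.7, 30.3 and 24.5 regions per Mb in replicates 1 to 4, against 23.2, 24.2, 19.4 and 15.8 on the other 4 arms. Median widths were 2047, 2077, 2051 and 2027 bp on X and 2053, 2081, 2044 and 2033 bp on the other arms. The ratio of these medians was 0.999 ± 0.00310 (SD, n = 4), with 1 of 4 replicates above 1 (exact permutation p = 0.63, adjusted p = 0.63), so no difference in width was seen beyond the spread. Broad regions were few. Regions over 5 kb made up 4.67%, 5.72%, 3.40% and 3.15% of those on X. On the other arms 4.53%, 7.38%, 3.22% and 2.39% were over 5 kb. The widest region of a replicate was 13136 to 26594 bp on 2L and 13306 to 31350 bp on 2R, but 8203 to 11596 bp on 3L and 7695 to 17293 bp on 3R, against 7794 to 10823 bp on X.

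The authors' score, a value per region whose scale is not stated, was read only as a rank within its own list. The median X region stood at percentile 49.6, 45.3, 32.9 and 31.6 of its whole list in replicates 1 to 4, and the median region of the other arms at 39.3, 39.5, 26.9 and 23.9. The median X region ranked higher in every replicate, by 7.47 ± 2.10 percentile points (SD, n = 4) and with 4 of 4 replicates in that direction (exact permutation p = 0.13, adjusted p = 0.18). The difference came with fewer weak regions on X. In the lowest-ranking 25% of each list stood 26.2%, 24.8%, 32.1% and 34.2% of the X regions, against 36.7%, 35.6%, 47.4% and 51.8% of those on the other arms. At the top of the lists X stood higher in replicates 1 and 2, and in 3 and 4 the counts were too small to rank. In the highest-ranking 10% of the list stood 90 of the X regions (16.8%) in replicate 1, 79 (13.7%) in replicate 2, 5 (0.850%) in replicate 3 and 3 (0.630%) in replicate 4. On the other arms the shares were 11.8%, 10.4%, 0.912% and 0.896%, so X was above them in replicates 1 and 2. In replicates 3 and 4 only 15 and 12 regions of the other arms stood there, too few to give an order.

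Replicates 3 and 4, with the higher experiment numbers, covered less of the autosomal arms than replicates 1 and 2, and on X this order was less common. Among the 83 windows of 1 Mb on the other 4 arms, 74 (89.2%) had both replicates 3 and 4 below both replicates 1 and 2. On X this held for 5 of 19 windows. By arm the counts were 18 of 20 windows on 2L, 13 of 18 on 2R, 20 of 21 on 3L and 23 of 24 on 3R. The opposite order, with replicates 3 and 4 both above 1 and 2, was seen in 1 of the 19 X windows and in 0 (0%) of the 83 others. At a finer grain of 100 kb, replicates 3 and 4 were both higher in 32 of 194 X windows (16.5%) against 59 of 845 (6.98%) elsewhere, and both lower in 63 X windows (32.5%) against 436 (51.6%). Each pair holds only 2 replicates, so the difference between pairs was not tested, and the labels name nothing but the experiment numbers that sets the pairs apart.

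Taking the same number of regions from each list gave the same order only in part. X makes up 18.7% of the length of the 5 trimmed arms. It held 21.4%, 22.0%, 26.3% and 26.2% of their regions in replicates 1 to 4. Among the 1500 highest-scoring arm regions of each list, X held 24.1%, 24.0%, 31.3% and 29.5%. Among the 1000 highest it held 25.0%, 23.9%, 29.8% and 32.4%, and at both numbers the pairs stayed apart. Among the 500 highest it held 27.4%, 24.6%, 26.8% and 30.0%, and replicate 1 exceeded replicate 3. The X share was above its share of the length in every one of these counts. These counts at equal numbers were chosen after seeing the data.

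At 1 Mb coverage along X varied less than on the other arms. The 19 windows of 1 Mb had mean covered shares from 4.67% to 9.19%, with a median of 6.62%, so the densest was 1.97 times the sparsest. That ratio was 2.75 on 3L, 4.07 on 3R, 4.15 on 2L and 5.35 on 2R. On 2R the longest run of regions with gaps of at most 5 kb lay close to the 2 Mb left out at the centromere. It began at 2143779, 2143323 and 2143493 in replicates 1 to 3 and at 2311287 in replicate 4. These ratios were not recomputed with more left out at the arm ends. The sparsest X window, from 9000001 to 10000000, had 4.72%, 4.96%, 4.49% and 4.52% in replicates 1 to 4, a mean of 4.67% ± 0.218 that lay above the median window of 2L (4.56%) and of 3R (4.48%) and below that of 3L (4.69%) and of 2R (5.44%). Only slightly higher were the windows that began at 18000001, with 5.10% ± 0.882, and at 8000001, with 5.33% ± 0.685. The densest window ran from 3000001 to 4000000 and was covered over 9.81%, 12.6%, 7.51% and 6.83% (mean 9.19% ± 2.61), with the first pair of replicates above the second. It was followed by 6000001 to 7000000 with 9.17% ± 1.14 and 1000001 to 2000000 with 9.14% ± 1.27. The order of these 3 is not resolved by their spread.

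**Figure D2:**
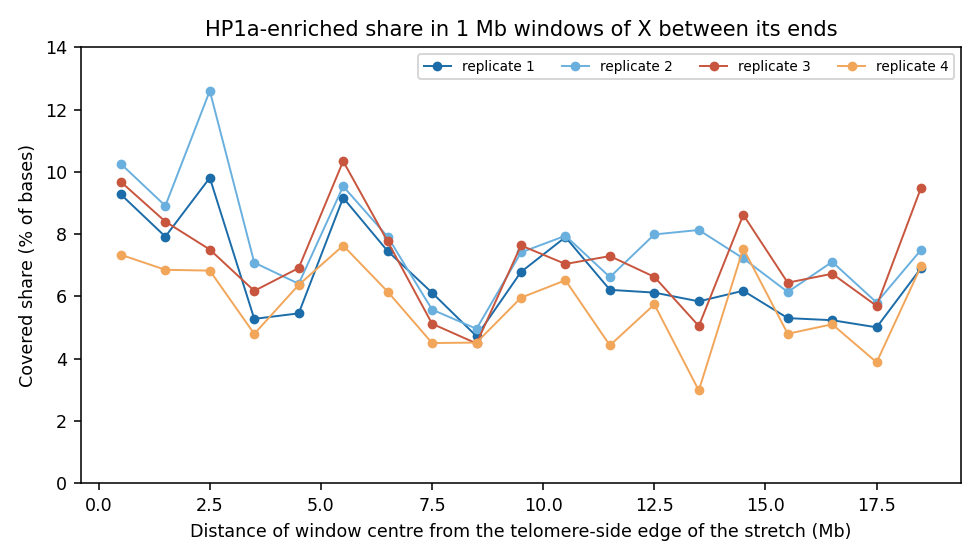
Covered share (percent of bases) in the 19 windows of 1 Mb on X between its ends, by distance of the window centre from the telomere-side edge, with 1 line per ChIP replicate. Shares stay between 2.98% and 12.6% throughout, replicates 1 and 2 are both the higher in 5 windows, and replicates 3 and 4 are both the higher in 1.

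The window from 15000001 to 16000000 was the 1 in which replicates 3 and 4 were both the higher, with 6.18%, 7.22%, 8.62% and 7.54% in replicates 1 to 4. The window just before it, from 14000001 to 15000000, had the opposite order, with 5.84% and 8.14% against 5.05% and 2.98%. These neighbouring windows thus differed in how the replicates ranked. The first was picked for its order, and the difference was not tested. As a description across the 19 windows, which share libraries and depth, Pearson's r of covered share was 0.887 for replicates 1 and 2 and 0.863 for replicates 3 and 4, and lay between 0.569 and 0.710 for the 4 pairs across them.

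In windows of 100 kb the X was more uneven, and 4 of 194 had a mean covered share above 20%. The densest began at 1800001 and had 29.8%, 28.4%, 19.5% and 17.1% in replicates 1 to 4. The next, from 3500001 to 3600000, had 23.8%, 30.6%, 20.3% and 17.6%. In both of these replicates 1 and 2 gave the higher shares. The window from 17800001 to 17900000 went the other way, with 10.6%, 21.0%, 27.7% and 22.9%, and replicates 3 and 4 gave the higher shares. The other two of the densest 5 gave like values in all replicates, with 21.4%, 21.5%, 18.9% and 18.9% from 3600001 to 3700000 and 20.0%, 20.1%, 19.3% and 19.2% from 7500001 to 7600000. The median window of 100 kb on X was covered over 5.64%. The densest had a mean of 23.7%, against 50.1% on 2L, 58.1% on 2R, 22.2% on 3L and 20.2% on 3R.

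The dense stretches were rows of separate regions. In the combined set the longest row with gaps of at most 5 kb held 10 regions over 47205 bp, from 1824252 to 1871456 (chrX:1824252-1871456). Its members ranged from a region of 2494 bp, from 1868963 to 1871456, that all replicates covered over at least 95.1% and whose combined score of 3.06 was the fourth highest on the stretch, to a region of 1177 bp, from 1855569 to 1856745, found in no replicate. Its first member, 8250 bp from 1824252 to 1832501, reached 95.6%, 98.1%, 0% and 0% coverage in replicates 1 to 4. In replicates 1, 2 and 3 the longest row lay elsewhere, beginning at 3565247, 3565265 and 3565290 and ending at 3590775, 3590792 and 3590798. These 3 lists placed its outer edges within 43 and 23 bp of each other. In replicate 4 the longest row ran from 17822448 to 17857198, in the window where replicates 3 and 4 were higher.

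Between the rows the regions were scattered. The median gap between neighbours on X was 19260, 17775, 15102 and 18776 bp in replicates 1 to 4, and 24.3%, 27.6%, 25.0% and 23.6% of gaps were 5 kb or less. Regions with no neighbour within 5 kb made up 58.5%, 53.4%, 57.1% and 59.5%. The longest stretch with no region in any of the 5 lists was 178 kb, from 8124829 to 8303018, followed by 166 kb from 7613382 to 7779266 and 165 kb from 2824699 to 2989690. Of the 194 windows of 100 kb, 7 had no region in any replicate. Assembly gaps and repeats were not taken out, so some empty stretches may be places where no region could be called.

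The combined set gave the fullest list for X and was then read against the replicates. A region counted as found where a replicate overlapped it by 1 bp or more. By that measure 318 of the 816 regions on the stretch, 39.0%, were in every replicate (Wilson interval at 95% from 35.7% to 42.4%, which covers counting error alone). This share was 47.1% over the whole combined set and 41.4% on the other 4 arms between their ends, so the X share was near that of the other arms. In none of the replicates were found 141 X regions, 17.3% (14.8% to 20.0%), against 13% of the whole set and 14.8% on the other arms. Since the combined set is labelled as the set of these same replicates, the shares are no independent evidence of enrichment.

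How many replicates held a region went with its score and width in the combined set. The 318 regions found in all 4 had a median combined score of 1.41 and a median width of 2446 bp, and made up 47.5% of the combined bases on the stretch. Regions found in 3, 2 and 1 replicates had median scores of 0.777, 0.756 and 0.627. Those found in none had a median score of 0.684 and a median width of 1301 bp, and 75% of them were 1554 bp or narrower. The smallest width in each replicate list was 1301 bp over the whole genome and in the combined set 1001 bp. Of the highest-scoring 20% of X regions 156 of 164 (95.1%) were found in all replicates, and of the lowest-scoring 20% 7 of 163 (4.29%). Recovery by score group was not computed for the other arms. There, regions found in all 4 had a median score of 1.34 and those found in none 0.593. Since the combined set is labelled as the set of these same replicates, its scores and the recovery are not independent.

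**Figure D3:**
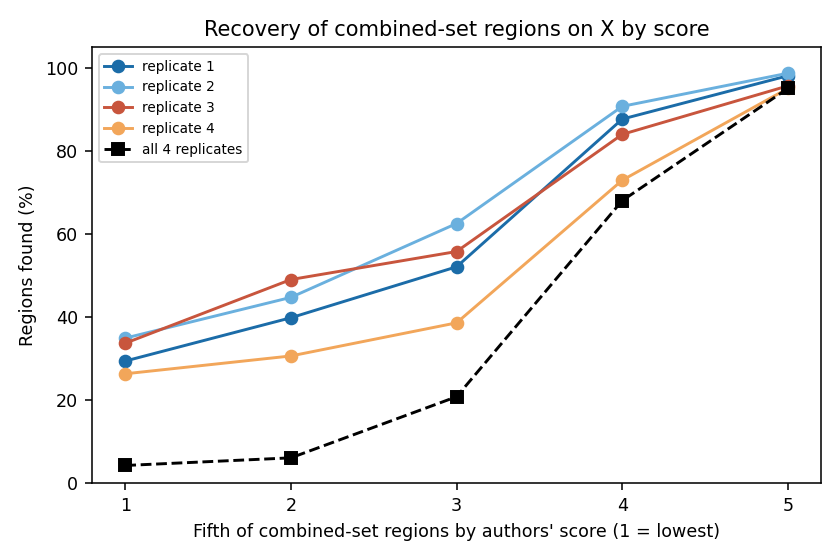
Share of the combined-set regions on X between its ends that each replicate overlapped (coloured lines) and that all 4 overlapped (dashed black line), in 5 groups of 163 or 164 regions by the authors' combined score, from the lowest (1) to the highest (5). In the lowest group single replicates found 26.4% to 35.0% and all 4 together 4.29%; in the highest, 95.1% to 98.8% and 95.1%.

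Where all replicates found a region they placed it closely. In 282 of the 318 regions each replicate had exactly 1 overlapping region, and for these the midpoints of the 4 replicates spanned a median of 107 bp, with 81.9% of them within 500 bp. The starts spanned a median of 126 bp and the ends 123 bp. The score order was shared to a lesser degree. Over the 318 regions, given as a description because they share libraries, Spearman's rho of the scores was 0.78 between replicates 1 and 2 and 0.77 between 3 and 4. Across the pairs it was 0.76 between 2 and 3, 0.68 between 1 and 3, 0.63 between 2 and 4 and 0.55 between 1 and 4. The median percentile of these regions in their own list was 73.0, 68.5, 45.2 and 36.1 in replicates 1 to 4, against 62.7, 61.4, 38.2 and 27.3 for the regions of the other arms found in all 4. In each list the shared regions on X ranked above those on the other arms.

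**Figure D4:**
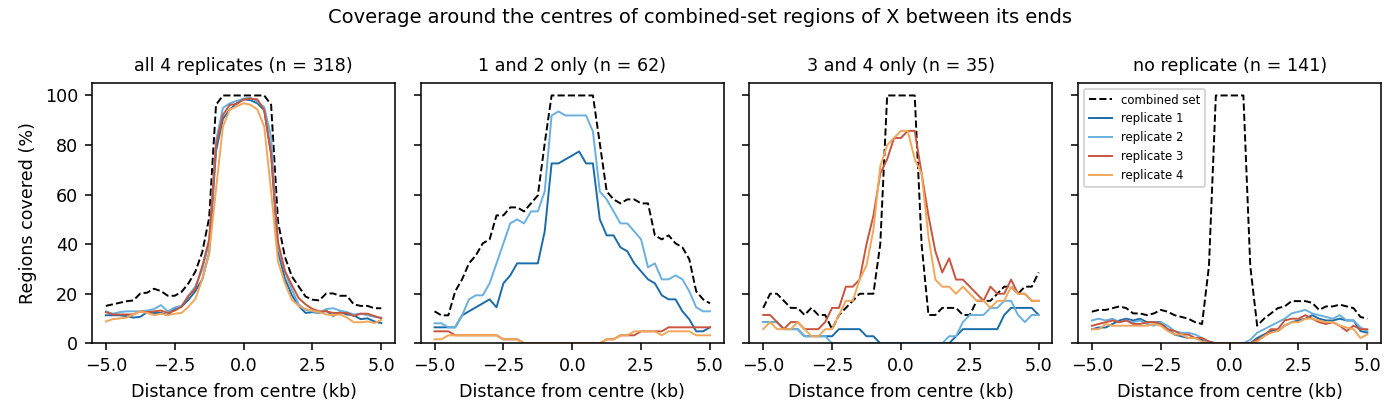
Percentage of combined-set regions on X between its ends that each list covers (vertical axis) at a given distance in kb from the region's centre, for regions found in all 4 replicates, in 1 and 2 only, in 3 and 4 only and in none. At the centre the replicates cover 96.9% to 98.7% of the first class. In the combined set, regions of replicates 1 and 2 only are broad and those of 3 and 4 only are narrow. Of the latter the combined set covers 20.0% or less at 1 kb from the centre.

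X differed from the other 4 arms in which replicates were missing, and less from the whole combined set. For the patterns given here the whole-set share lay within the X interval. Regions found in replicates 1 and 2 and in neither 3 nor 4 numbered 62 on X, 7.60% (5.97% to 9.62%), against 9.02% of the whole set and 12.8% on the other arms. By arm the share was 9.72% on 2R, 13.6% on 2L, 14.1% on 3L and 13.8% on 3R, so X was closest to 2R. The reverse, regions in replicates 3 and 4 and in neither 1 nor 2, numbered 35, 4.29% (3.10% to 5.91%), against 3.12% of the whole set and 1.56% on the other arms, where 41 of 2635 did so. Single arms had 7 on 2L, 8 on 2R, 15 on 3L and 11 on 3R, shares of 1.27%, 1.23%, 2.21% and 1.46%. With at least 50% of a region covered in 3 and 4 and no base in 1 and 2, a rule chosen after seeing the data, the counts were 27 on X (3.31%) and 38 on the other arms (1.44%). Regions missing from replicate 1 alone numbered 37 on X, 4.53% (3.31% to 6.19%), against 3.55% of the whole set and 1.25% on the other arms. Of the X regions found in both replicates 3 and 4, 79.5% were also in both 1 and 2. On the other arms as a whole 92.1% were, and the single arms lay between 90.3% and 94.1%. The reverse measure went the other way. Of the X regions found in both 1 and 2, 71.1% were also in both 3 and 4, against 64.5% on the other arms. Neither measure was computed over the whole set. Regions are not replicates, and the intervals cover counting error only.

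**Figure D5:**
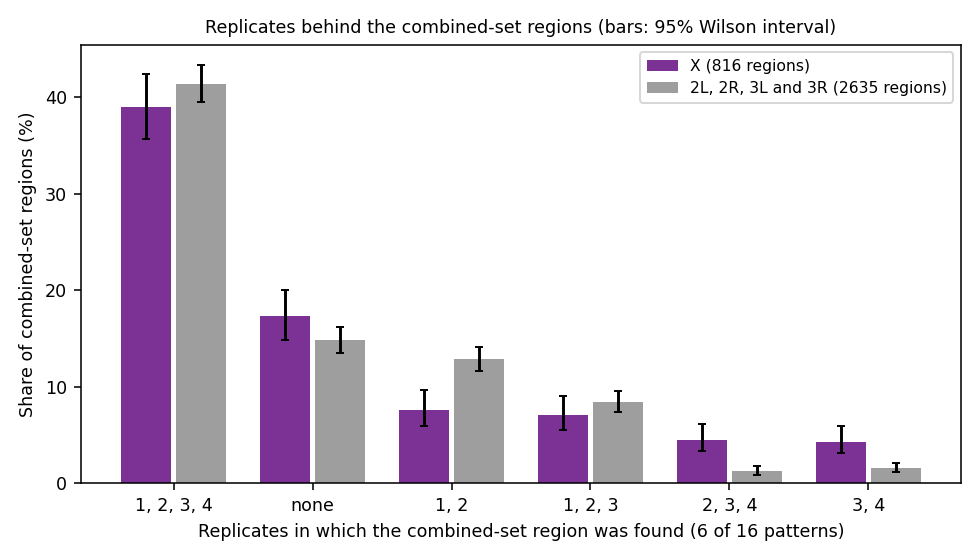
Share in percent of combined-set regions found in the named replicates, for X (816 regions) and for 2L, 2R, 3L and 3R together (2635 regions), with 95% Wilson intervals; 6 of the 16 possible patterns are drawn. Regions of replicates 3 and 4 only were 4.29% on X and 1.56% on the other arms, and regions of 1 and 2 only 7.60% and 12.8%.

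Against the other arms the same held in the replicate lists themselves, without the combined set. Shares over the whole replicate lists were not computed here. In replicate 3, 46 X regions (7.82%) overlapped a region of replicate 4 and none of replicates 1 and 2, against 3.77% on the other arms, and in replicate 4 the shares were 9.87% and 4.41%. In replicates 1 and 2, 13.3% and 11.4% of the X regions were shared by that pair alone, against 19.6% and 17.6% on the other arms. X regions overlapped in all other replicates made up 55.3% of replicate 3 and 68.3% of replicate 4, against 67.7% and 83.9% on the other arms. In replicates 1 and 2 the order was reversed and the gap small, with 60.7% against 57% and 56.5% against 54.1%. The Jaccard index of covered bases had a mean of 0.565 over the 6 pairs of replicates on X, within the range of the other arms from 0.552 on 3L to 0.605 on 2R. Within the pairs of experiment numbers the X values of 0.675 and 0.621 were the lowest of the 5 arms.

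In the combined set the regions of the 2 patterns differed in width. On the other arms the median widths there were 3429 bp for replicates 1 and 2 only and 1486 bp for 3 and 4 only. On X those found in replicates 1 and 2 only had a median width of 4765 bp, and 48.4% of them were wider than 5 kb. The highest-scoring was 6726 bp from 6323270 to 6329995, with a score of 1.95, of which replicate 1 covered 98.4% and replicate 2 covered 93.2%. It was followed by 7696 bp from 13893627 to 13901322 with 1.54 and by 13426 bp from 13942785 to 13956210 with 1.50, the widest combined-set region of the stretch, of which replicate 1 covered 25.6% and replicate 2 covered 69.0%. Next came 8250 bp from 1824252 with 1.47, the first member of the long row, and 8579 bp from 14445191 to 14453769 with 1.40. Of these 5, 3 lay between 13000001 and 15000000. All 62 together were spread over 19 of the 20 windows of 1 Mb that the stretch touches, with at most 8 in 1 window, the one from 3000001.

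Regions found in replicates 3 and 4 only were narrow and weak in the combined set. Their median width there was 1361 bp, 0 of 35 were wider than 5 kb, and their highest score was 1.02. They were spread over 14 of the 20 windows of 1 Mb that the stretch touches, with at most 5 in 1 window. The highest-scoring, 1144 bp from 16556740 to 16557883, was covered by replicate 3 to 56.8% and by replicate 4 to 100%. The next, 1038 bp from 6648042 to 6649079 with 0.947, was covered over 43.6% and 0.963%, so replicate 4 only touched it. The other 3 of the first 5 began at 5293608, 8101290 and 19717303, with scores of 0.932, 0.925 and 0.872. In the lists of replicates 3 and 4 the regions shared by that pair alone stood at median percentiles of 29.3 and 26.9 on X and of 18.2 and 14.2 on the other arms. On X their median widths in these lists were 1886 and 1822 bp. In the lists of replicates 1 and 2 the X regions shared by that pair alone had median widths of 1930 and 2327 bp. Those stood at median percentiles of 24.1 and 29.3. The width contrast was thus smaller in the replicates' own lists than in the combined set.

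Some X regions of replicates 3 and 4 had no counterpart in the combined set. Of the X regions in replicates 3 and 4, 61 (10.4%) and 41 (8.61%) were overlapped by no combined-set region, against 5.65% and 3.96% on the other arms. In replicates 1 and 2 this was so for 5 (0.935%) and 3 (0.520%) X regions, against 0.407% and 0.0977%. The shares over the whole lists were not computed, so how far this is particular to X is not known. Of the 61 and the 41, 15 and 17 overlapped a region of the other replicate of the pair. How the combined set was made is not stated in the labels or file headers.

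The 10 highest combined scores among regions found in all 4 replicates belonged to regions of 2201 to 3393 bp, near the middle of the widths of that class, whose median was 2446 bp. The highest, 3.43, was at 16109894 to 16112677. It was covered over 99.5%, 97.4%, 97.8% and 96.6% in replicates 1 to 4 and was the highest-scoring X region of replicates 1, 2 and 3. By score it ranked 1, 2, 69 and 241 in the whole lists of replicates 1 to 4. By percentile the other 9 also stood higher in the lists of replicates 1 and 2 than in those of 3 and 4. The 10 were picked by combined score, which followed the scores of replicates 1 and 2 more closely. Over the 318 regions Spearman's rho with the combined score was 0.88, 0.95, 0.75 and 0.60 for replicates 1 to 4. This order was therefore favoured by the choice of regions. The second, with a score of 3.37, at 19576045 to 19578510, was covered over 97.3%, 98.2%, 94.1% and 87.0% and stood at percentile 99.8, 99.9, 91.4 and 62.4 of the 4 lists. The third, with 3.23, at 2210539 to 2212813, was covered over 98.5%, 97.8%, 100% and 97.9% and stood at 99.9, 99.8, 96.1 and 91.9.

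The rest of the 10 lay from 1868963 to 1871456 with a score of 3.06, from 11899977 to 11902868 with 2.92, from 11579283 to 11581527 with 2.88 and from 7595693 to 7597893 with 2.84. The last 3 were at 5410075 to 5413467 with 2.80, at 1976793 to 1979010 with 2.79 and at 19744098 to 19746641 with 2.75. Coverage by single replicates was 94.8% or more in these 7, except at 5410075, where replicates 3 and 4 covered 90.0% and 66.1%. Of the 100 highest-scoring regions of each list genome-wide, 20 lay on the stretch in the combined set and 24, 21, 1 and 0 in replicates 1 to 4. The stretch held 14.3% of all regions of the combined set and 9.90%, 11.3%, 11.99% and 11.2% of those of the replicates. The other 4 arms had 67 of the same 100 in the combined set and 53, 62, 1 and 3 in the replicates, with 46.3%, 36.3%, 39.9%, 33.6% and 31.4% of all regions.

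In replicate 4 another X region led. The region of 8381 bp from 4824216 to 4832596 had the highest score of the stretch in replicate 4 and the third highest in replicate 3, and stood at percentile 83.7, 94.3, 96.0 and 96.7 in replicates 1 to 4. Its combined score of 1.87 ranked 78 among the 816. The replicates covered 98.2%, 79.5%, 83.6% and 84.2% of it. It was broader than each of the 10 regions above. Its percentiles were higher in replicates 3 and 4, the reverse of theirs. It was picked for its place in those lists, so this order was favoured by the choice.

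A high-scoring region was also seen in replicate 1 alone. It spanned 1655 bp from 14726932 to 14728586, and its score of 3.60 was the second highest of the stretch and the fourth highest of the whole list of replicate 1. No region of replicates 2, 3 and 4 or of the combined set overlapped it. The nearest region of the combined set lay 4447 bp away, and those of replicates 2, 3 and 4 lay 4436, 4500 and 4882 bp away. Its score was seen in 1 replicate, with no replicate check.

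Among regions found in every replicate the widest, at 1251329 to 1262842, measured 11514 bp. Those at 12823351 to 12833301, 7583899 to 7593815 and 3578174 to 3587551 measured 9951, 9917 and 9378 bp, and that at 6916980 to 6925721 measured 8742 bp. They behaved unequally. Replicates 1 to 4 covered 81.5%, 94.0%, 47.1% and 26.9% of the first and 86.7%, 96.0%, 61.3% and 40.5% of the second. The third was covered over 96.6%, 97.3%, 96.0% and 93.1%, and lay 1877 bp before the region from 7595693 that is among the 10 highest. The fourth, covered over 99.6%, 87.2%, 88.6% and 75.5%, was part of the row that began at 3565247.

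At the low end, the 5 regions with the lowest combined scores found in all 4 replicates scored 0.497 to 0.588. They began at 9884189, 6159308, 8550326, 6536305 and 11814314, and 4 of them were 1954 to 1976 bp wide. The replicates covered between 47.3% and 99.9% of each. Of the regions found in none, the highest scores were 1.53 at 19836473 to 19837473, 1.45 at 11672728 to 11673887, 1.38 at 1474538 to 1475549, 1.23 at 14927660 to 14928741 and 1.17 at 2106966 to 2107997. All 5 were 1001 to 1160 bp wide, narrower than any region in a replicate list.

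The edges of the stretch fell between regions. In the combined set the regions just inside the telomere-side edge were at 1027318 to 1029230 and 1057835 to 1059361, with scores of 0.584 and 0.715. Those just outside were at 931476 to 932848 and 959492 to 965890, with 0.430 and 0.741. At the centromere-side edge the last inside were at 20352268 to 20353311 and 20359889 to 20361214, with 0.673 and 0.749, and the first outside at 20527141 to 20529154 and 20563994 to 20566046, with 0.754 and 1.33. No combined-set region crossed either edge.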

How the data were processed

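Enriched regions of the 4 ChIP samples and of the combined set were read from the 5 deposited lists, with coordinates in FlyBase release 5 per the file headers. The submitters' processing notes name Bowtie 0.12.7. The score of each region is the authors' own, deposited without a unit; no peak caller, threshold or read filter is named in the labels or file headers. Scores were therefore ranked within a list only. No input list, reads or counts were used, and the depth is unknown.

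The 2L, 2R, 3L and 3R arms were trimmed as X was, by 1 Mb at the telomere side and 2 Mb at the centromere side. Ends past a sequence's last base were clipped (1 X region of replicate 2, outside the stretch). Covered shares use the full sequence, assembly gaps included. Ratios were formed within a replicate and tested by exact two-sided sign flips of the log2 values over 4 replicates (score percentiles by their differences), with Benjamini-Hochberg adjustment over 7 tests. Windows lie on a fixed grid from base 1. Named regions were the 10 highest-scoring, 5 widest and 5 lowest-scoring of those in all 4 replicates, the 5 highest-scoring of those in none or in only the 1 and 2 or 3 and 4 pair, the 5 highest-scoring of each replicate list, and the densest windows; of these the text gives the ones that differ. The members, lists and tests were chosen with earlier results of these data known. Alternatives were a score cut, merging, other arm edges, other overlap rules and leaving out replicates. Python 3.11.15, NumPy 2.4.6, SciPy 1.17.1 and Matplotlib 3.10.9 were used, and the code was tested on simulated lists. The gene table at hand is of release 6, so its coordinates were not used.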

Additional observations from a re-analysis of the deposited data

Results flagged for a closer look

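Of 47 values compared over the 4 replicates, Dixon's test picked 1, whereas about 1 in 20 are picked by chance. In the X region at 6916980 to 6925721, which is 8742 bp wide, replicate 2 covered 99.5% of the bases. The other 3 replicates covered 80.5% to 81.2%, so the gap to replicate 2 took up most of the range. The cause was not tested.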

How the results depend on the processing

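Of 72 alternative settings over 10 results, 69 kept the direction of the mean, or stayed within 1.5 times the count or the spread between pairs. The log2 ratio of covered shares of X to the other arms was 0.43, and lay between 0.44 and 0.55 under a higher score cut, merging, other edges, leaving out 2R or counting regions per Mb, and between 0.37 and 0.50 without single replicates. With 4 replicates no p in these tests can pass 0.05. Against 2R alone the log2 ratio was 0.12, and lay between 0.07 and 0.18 without single replicates. The log2 ratio of median widths, -0.0017, changed sign to 0.0074 when neighbours at most 1 kb apart were merged and to 0.0042 without 2R, so it has no settled direction. Without single replicates it was -0.0039 to -0.00069. The difference of median score percentile was 6.52 to 8.03 without single replicates, against 7.47. The mean Jaccard index on X fell from 0.565 to 0.440 when only regions at or above the median score of their list were kept, and the cause was not tested. Without single replicates it was 0.550 to 0.591, and the count of X regions found in every remaining replicate was 327 to 376, against 318. That result was judged by its count, and its share moved more. Among higher-scoring combined-set regions, 276 of 360 on X (76.7%) were in all 4 replicates, against 318 of 816 (39.0%). With reciprocal overlap of at least 50% the share was 33.7%, and with at least 50% of the region covered it was 35.5%. These altered shares were not computed for the other arms. With other overlap rules, chosen after seeing the data, 27 (3.31%) or 30 (3.68%) X regions were in replicates 3 and 4 and not 1 and 2, against 35, and 38 (1.44%) or 44 (1.67%) on the other arms, against 41. No paired analysis was possible because the input samples that share the ChIP replicate numbers have no list of their own here. Unknown depth limits the lists: a weak region missing from a replicate may lie just under its threshold.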
